A study of Homo sapiens with 66 samples.

Results

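Integrins and laminins are the receptor and the ligand side of the contact between a cell and its basement membrane. The genes described here are the protein-coding members of both families in the GENCODE 29 annotation, chosen by symbol: 18 integrin alpha chains, 8 integrin beta chains, and 5 alpha, 4 beta and 3 gamma chains of laminin. Together they are 38 of the 58721 genes counted. The symbols chose them, and no expression value did. The RNA came from A375, an established human melanoma cell line with mutant BRAF.

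The question of the study was how melanoma cells, with and without a BRAF inhibitor, change when they lose 1 subunit of Mediator, which links transcription factors to RNA polymerase II. There were 66 libraries in 22 groups of 3 replicates, in 3 experiments that were counted and are compared separately. The Mediator experiment (batch 1 in the labels, 14 groups) held MED12, MED19 or MED23 knockout cells, each made with 1 of 2 guide RNAs (sg1, sg2), and control cells with a guide against GFP (GFPsg, genotype WT). Each was given 1 µM vemurafenib, an inhibitor of mutant BRAF, or its solvent DMSO for 24 h. The SOX10 experiment (batch 2, 4 groups) held MED23 knockout cells (MED23sg1) overexpressing SOX10, which drives neural crest and pigment cell genes, MED23 knockout cells with an empty vector (EV), control cells (GFPsg) overexpressing SOX10, and control cells with EV. The HDAC3 experiment (batch 3, 4 groups) held cells without both HDAC3 and MED23 (dKO), HDAC3 knockout cells, MED23 knockout cells and control cells (Ctrl, genotype WT). HDAC3 is a histone deacetylase of corepressor complexes. No drug is given in the labels of the last 2 experiments, and the labels do not say whether a knockout line was a pool or 1 clone. They also do not say that replicates were separate cultures, so p-values measure the spread between libraries, which may be technical.

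An integrin is a pair of an alpha and a beta chain that spans the membrane, binds a matrix protein outside and hands force and signals to talin and other adaptors inside. The alpha chain largely sets the ligand: collagen (ITGA1, ITGA2, ITGA10, ITGA11), laminin (ITGA3, ITGA6, ITGA7), proteins with an RGD motif such as fibronectin and vitronectin (ITGA5, ITGA8, ITGAV, ITGA2B), or VCAM1, osteopontin and tenascin-C (ITGA4, ITGA9). ITGB1 pairs with most of these, ITGB3, ITGB5, ITGB6 and ITGB8 pair with ITGAV, and ITGB4 pairs with ITGA6. ITGB2 with ITGAL, ITGAM, ITGAX or ITGAD, and ITGAE with ITGB7, are known from white blood cells. A laminin is a trimer of an alpha, a beta and a gamma chain. LAMA4 with LAMB1 and LAMC1 is typical of vessels and mesenchyme, LAMA2 with LAMB1 and LAMC1 of muscle and nerve, and LAMA3 and LAMB3 belong to the laminin that anchors epithelia. In melanoma, ITGAV with ITGB3 is a long-studied pair in invasive growth.

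Library totals lay between 65.88 and 211.79 M counts in the Mediator experiment, 24.87 and 30.77 M in the SOX10 experiment and 58.84 and 106.19 M in the HDAC3 experiment. After a filter on low counts, 37 of the 38 members were tested in the Mediator experiment (ITGAL was left out), 31 in the SOX10 experiment (ITGA2B, ITGAD, ITGAL, ITGAM, ITGB6, ITGB7 and LAMB4 were left out) and 34 in the HDAC3 experiment (ITGA2B, ITGAD, ITGAL and ITGAM were left out). The median level of the tested members was 17.1, 44.1 and 16.4 CPM (counts scaled to a library of 1 M counts) in the 3 experiments, above the median of 2.12, 13.3 and 6.75 CPM of all genes tested, and how far this level sets the share of members called was not tested. Each targeted gene was lower in the libraries labelled as its knockout: the log2 fold change was -2.04 ± 0.031 for MED12, -1.05 ± 0.043 for MED19, -1.12 ± 0.033 for MED23 and -0.97 ± 0.05 for HDAC3 (SE). SOX10 itself was 0.19 higher on the log2 scale with SOX10 overexpression in control cells and 0.80 higher in MED23 knockout cells, from counts that cannot separate the transgene from the cell's own gene. Of 12 markers of the melanocyte lineage, SOX10 averaged 771, MITF 73.8 and S100B 50.8 CPM in control cells in DMSO, while the pigment cell genes PMEL, MLANA, TYR and TYRP1 were at 0.804, 1.37, 0.0181 and 0.0930 CPM, at or near 0. DCT, another pigment cell gene, was at 848 CPM in control cells with vemurafenib and 2.38 CPM in DMSO. In bulk RNA, fewer cells with a transcript and less transcript per cell cannot be told apart.

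Throughout, "rose" and "fell" stand for a Benjamini-Hochberg adjusted p under 0.05 over all genes tested (edgeR's quasi-likelihood test). A member is counted as called when it also changed at least 2-fold. A fold change is on the log2 scale with its standard error. Where the 3 libraries of a group together hold under 30 counts of a member, its counts are given, with no fold against that group.

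Levels of different genes were compared per length, as counts per kilobase of exon per M counts (RPKM). In control cells in DMSO, 13 members were at 10 RPKM or more, 9 between 1 and 10, and 16 under 1. A laminin receptor chain, the common beta chain and 2 laminin chains led. ITGA6 was at 82.7 ± 1.21 RPKM and LAMC1 at 82.0 ± 1.25 RPKM, which overlap, followed by ITGB1 at 79.3 ± 0.892 and LAMB1 at 76.2 ± 1.36 RPKM (mean ± SD, n = 3). Below these were ITGB3, the beta chain of the vitronectin receptor, at 45.5 ± 0.994 RPKM, then the laminin receptor chain ITGA3 at 36.1 ± 1.70 and ITGB5 at 34.3 ± 0.789 RPKM, whose libraries overlap. ITGA5, at 25.0 ± 0.877 RPKM, and LAMB2, at 21.0 ± 0.711 RPKM, lay above ITGAV, at 16.4 ± 0.573 RPKM. Among laminin alpha chains LAMA4 was at 19.7 ± 0.119 RPKM, LAMA5 at 3.47 ± 0.281, LAMA2 at 0.619 ± 0.0304, LAMA3 at 0.161 ± 0.0115 and LAMA1 at 0.0472 ± 0.00888 RPKM. LAMA4 was thus the main alpha chain by this measure, with LAMB1 and LAMC1 as the main beta and gamma chains. The white blood cell chains were low: ITGAX was at 0.341 ± 0.0493 RPKM and ITGB2 at 0.201 ± 0.0177 RPKM. ITGAL, ITGAM, ITGB6 and LAMB4 had under 30 counts over the 3 libraries.

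Loss of MED12, MED19 or MED23 in DMSO was accompanied by lower ITGA9, ITGB3, LAMA4 and LAMC3 and by higher ITGA11. These comparisons share the same 3 control libraries, so their values are given side by side and not as independent support of each other. In MED12 knockout cells 16 of 37 members were called (10 higher, 6 lower), against 15.6% of all genes tested (9.91% higher, 5.72% lower). In MED19 knockout cells 7 were called (3 higher, 4 lower), against 6.30% of all genes (3.56% and 2.74%). In MED23 knockout cells 9 were called (4 higher, 5 lower), against 6.79% of all genes (3.82% and 2.97%). By adjusted p alone, 31, 27 and 28 members moved in the 3 knockouts, against 54.9%, 40.6% and 36.9% of all genes tested. The median log2 fold change over the members was 0.47, 0.11 and 0.15, and over all genes tested 0.0031, 0.0018 and 0.0061.

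ITGA9, the alpha chain that pairs with ITGB1 and binds tenascin-C, osteopontin and VCAM1, was the member with the lowest fold change in MED12 and MED19 knockout cells. It lay at 0.607 to 1.52 CPM (median 1.17) in the 6 MED12 knockout libraries, at 6.41 to 13.6 CPM (median 8.67) in the 6 MED19 and at 14.5 to 21.0 CPM (median 19.3) in the 6 MED23 knockout libraries, against 42.9, 44.4 and 50.4 CPM in the control libraries. No knockout library reached the lowest control library, and the order MED12, MED19, MED23 and control held without overlap. The log2 fold change was -5.44 ± 0.11 in MED12, -2.33 ± 0.091 in MED19 and -1.29 ± 0.089 in MED23 knockout cells (SE, highest adjusted p of the 3 2.74e-17). The 2 MED19 guides differed, with 6.41, 7.28 and 7.06 CPM for sg1 and 10.1, 12.4 and 13.6 CPM for sg2. Its antisense gene ITGA9-AS1 overlaps 535 exon bases, and without a known strand setting reads of both cannot be told apart. ITGA4, the other chain of this ligand class, fell with log2 fold changes of -0.67 ± 0.031 in MED12, -0.62 ± 0.031 in MED19 and -0.35 ± 0.031 in MED23 knockout cells, each at an adjusted p of at most 1.81e-13.

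ITGB3, the beta chain of the vitronectin receptor, fell in all 3 knockouts. It lay at 29.0 to 35.7 CPM (median 31.8) in MED12, 76.3 to 106 CPM (median 87.1) in MED19 and 47.9 to 63.0 CPM (median 57.8) in MED23 knockout libraries, against 201, 195 and 204 CPM in control libraries. The fold change was -2.65 ± 0.04 (SE, adjusted p = 2.12e-44) in MED12, -1.18 ± 0.04 (SE, adjusted p = 2.75e-29) in MED19 and -1.84 ± 0.04 (SE, adjusted p = 2.79e-37) in MED23 knockout cells. The knockout libraries stayed below every control library. Another gene on the same strand, AC068234.1, shares 2266 exon bases with ITGB3, and how reads there were counted is not given. Its partner ITGAV rose in the same cells, by 0.50 ± 0.029, 0.25 ± 0.029 and 0.26 ± 0.029 in MED12, MED19 and MED23 knockout cells, and ITGB5, another partner of ITGAV, by 0.25 ± 0.027, 0.18 ± 0.027 and 0.35 ± 0.027. Transcripts of the 2 chains of the ITGAV and ITGB3 pair therefore moved in opposite directions.

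**Figure D1:**
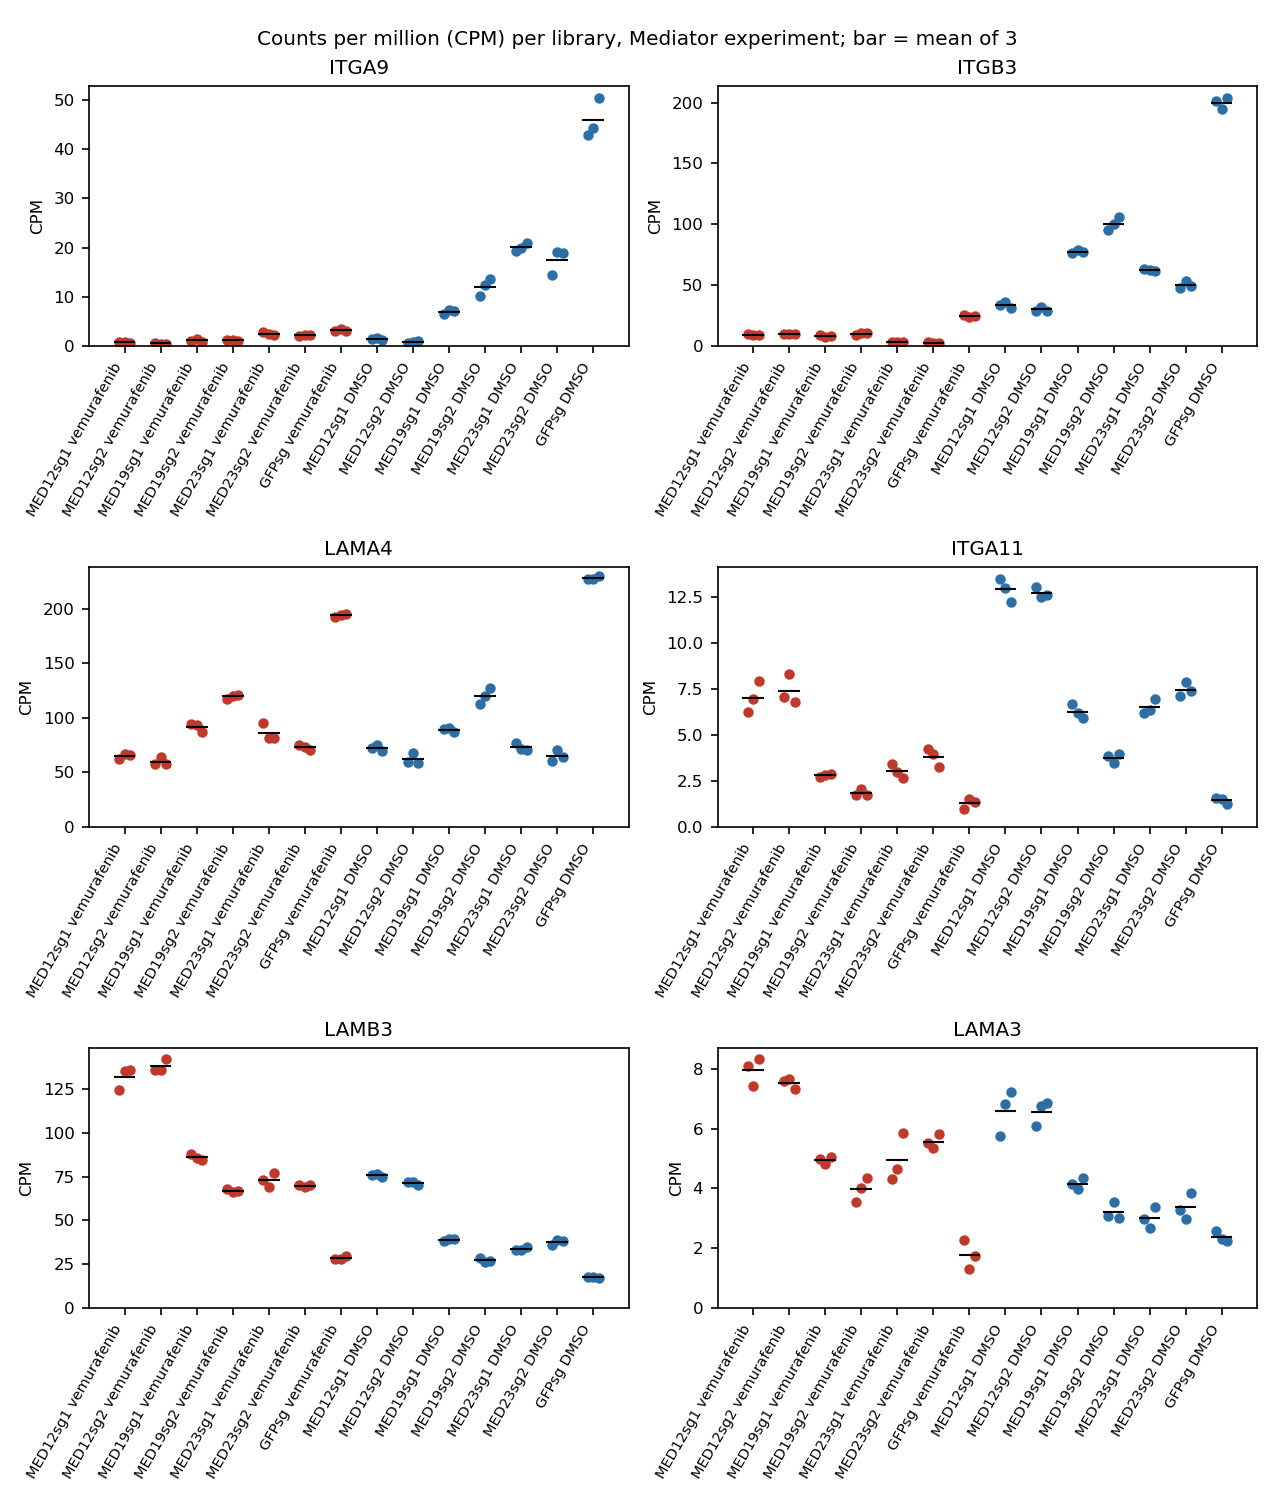
Level (CPM) in each library of the Mediator experiment for 6 members; each point is 1 library, the bar is the mean of 3, red is vemurafenib and blue is DMSO, with knockouts left of the GFPsg control. ITGA9, ITGB3 and LAMA4 are lower in every knockout library in DMSO than in the control libraries in DMSO, ITGA11, LAMB3 and LAMA3 are higher in every one.

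The collagen receptor chain ITGA11, known from fibroblasts, moved the other way. It lay at 12.2 to 13.5 CPM (median 12.8) in MED12, 3.50 to 6.69 CPM (median 4.94) in MED19 and 6.18 to 7.89 CPM (median 7.04) in MED23 knockout libraries, against 1.56, 1.51 and 1.25 CPM in control libraries. It rose by 3.17 ± 0.10, 1.76 ± 0.10 and 2.29 ± 0.10 on the log2 scale (SE, highest adjusted p 1.15e-19). The lowest knockout library was above the highest control library in each case. ITGA8, which pairs with ITGB1 and binds nephronectin, rose in MED23 knockout cells, where sg1 libraries were at 1.59, 1.68 and 2.07 CPM and sg2 libraries at 1.91, 2.26 and 2.18 CPM, against 0.254, 0.162 and 0.273 CPM in control libraries. Its fold change was 3.08 ± 0.27 (SE, adjusted p = 8.23e-14) there, and 0.42 (adjusted p = 0.199) in MED12 and 0.0038 (adjusted p = 0.996) in MED19 knockout cells, which did not pass. Both genes stayed low in absolute terms, under 15 CPM in every library. Fibroblast markers summed to 62.4 to 64.9 CPM in MED12sg1 and 31.3 to 35.7 CPM in MED23sg1 libraries, against 21.2 to 22.3 CPM in control libraries, over 7 genes of which none was at 0. The sums were 27.3 to 28.2 CPM in MED19sg1 and 21.6 to 23.6 CPM in MED19sg2 libraries, the latter overlapping the control libraries. LUM was at 34.2 CPM in MED12sg1 and 4.85 CPM in control libraries, and COL1A2 was at 0.411 CPM in MED12sg1 and 0.210 CPM in control cells. FAP was at 6.36 CPM in MED12sg1 and 0.367 CPM in MED23sg1 libraries, against 0.562 CPM in control libraries. The part of these markers in the rise of ITGA11 was not tested.

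Among laminin alpha chains, LAMA4 fell and the rarer LAMA1, LAMA3 and LAMA5 rose. LAMA4, by length the most abundant of them, lay at 58.4 to 74.9 CPM (median 68.9) in MED12, 87.1 to 128 CPM (median 102) in MED19 and 60.2 to 76.4 CPM (median 70.4) in MED23 knockout libraries, against 227, 227 and 229 CPM in control libraries. Its fold change was -1.77 ± 0.042 (SE, adjusted p = 2.07e-36), -1.14 ± 0.042 (SE, adjusted p = 9.32e-28) and -1.73 ± 0.042 (SE, adjusted p = 2.80e-35). LAMB1 and LAMC1, with which LAMA4 forms a trimer, differed by far less, at -0.10, -0.052 and 0.09 for LAMB1 and -0.12, 0.083 and 0.15 for LAMC1. LAMA1, an alpha chain of early embryonic basement membranes, was at 5.83 to 6.45 CPM (median 6.16) in MED12 knockout libraries, against 0.596, 0.872 and 0.781 CPM in control libraries, a rise of 3.02 ± 0.15 (SE, adjusted p = 6.58e-23). It rose by 1.19 ± 0.15 in MED19 and 0.47 ± 0.15 in MED23 knockout cells, the last not passing without control replicate 1 (adjusted p = 0.120 by edgeR). Exons of antisense genes overlap 1754 bases of LAMA1. LAMA5, widespread in epithelial basement membranes, rose by 1.33 ± 0.045, 0.31 ± 0.044 and 0.86 ± 0.044 in MED12, MED19 and MED23 knockout cells. LAMC3, a scarce gamma chain, fell, with log2 fold changes of -1.95 ± 0.26, -1.71 ± 0.26 and -1.15 ± 0.26, and had 115 counts over the 3 MED12sg1 libraries and 379 over the 3 control libraries.

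LAMB3 and LAMA3, chains of the epithelial laminin, rose in all 3 knockouts. LAMB3 lay at 70.5 to 76.7 CPM (median 73.3) in MED12, 26.4 to 39.6 CPM (median 33.2) in MED19 and 33.0 to 38.5 CPM (median 35.5) in MED23 knockout libraries, against 17.6, 17.6 and 17.1 CPM in control libraries. It rose by 2.08 ± 0.035, 0.91 ± 0.035 and 1.03 ± 0.035 (highest adjusted p 5.57e-27). LAMA3 rose by 1.48 ± 0.11, 0.63 ± 0.11 and 0.44 ± 0.11 in MED12, MED19 and MED23 knockout cells. All passed an adjusted p of 0.05, with the smaller folds under the 2-fold limit. Epithelial markers summed to 340.5 to 362 CPM in MED12sg1 and 218 to 219.5 CPM in control libraries, nearly all KRT18 and KRT8, while EPCAM, KRT5, TP63 and GRHL2 were each on average under 1 CPM in both. KRT14, of the same list, went the other way, at 1.13 CPM in MED12sg1 and 9.66 CPM in control libraries. The part of the epithelial markers in these rises was not tested.

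Sequence upstream of 4 of the members that the results turn on is shown for their start sites in RefSeq (GRCh38.p14, 5′ to 3′ on the gene's strand), because LAMB3 and LAMA3 rose together in the Mediator knockouts, ITGA11 rose in every Mediator knockout, and LAMA2 had the largest rise with vemurafenib in control cells among members with 30 counts in both groups. A window of 250 bases before the start was searched on both strands for TGANTCA (AP-1), GGAATG (TEAD), ACAANG (SOX) and TCANGTG (M-box, bound by MITF), of which capitals mark the matches, and bases inside an exon of the gene in GENCODE 29 are left out of the first 3 sequences. They are LAMB3 at chr1:209652467-209652675 (minus strand), LAMA2 at chr6:128882888-128883137 (plus strand) and ITGA11 at chr15:68432164-68432413 (minus strand), followed by 2 sites of 29 bases from the LAMA3 window at chr18:23872886-23872914 and chr18:23872938-23872966 (plus strand).
LAMB3: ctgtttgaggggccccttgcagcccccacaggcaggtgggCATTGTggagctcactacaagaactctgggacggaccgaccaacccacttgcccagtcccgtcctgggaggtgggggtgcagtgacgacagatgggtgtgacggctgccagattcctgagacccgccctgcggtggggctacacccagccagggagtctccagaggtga
LAMA2: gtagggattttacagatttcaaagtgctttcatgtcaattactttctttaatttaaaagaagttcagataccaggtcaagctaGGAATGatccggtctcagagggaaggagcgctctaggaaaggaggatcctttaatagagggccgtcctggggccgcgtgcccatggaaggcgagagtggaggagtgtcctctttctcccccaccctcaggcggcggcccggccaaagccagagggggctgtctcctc
ITGA11: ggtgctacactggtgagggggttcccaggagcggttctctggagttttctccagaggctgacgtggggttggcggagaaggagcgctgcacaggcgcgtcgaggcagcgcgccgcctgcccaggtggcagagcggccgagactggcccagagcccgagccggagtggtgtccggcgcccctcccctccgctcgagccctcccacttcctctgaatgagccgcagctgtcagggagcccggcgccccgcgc
LAMA3 site 1: ggcacaggcTGACTCATGTGtgaagttta
LAMA3 site 2: agccttcctCACCTGAGTCAggcaggccc
The LAMB3 window held 1 ACAANG match, the LAMA2 window 1 GGAATG match, and the ITGA11 window none of the 4 motifs. In each LAMA3 site a TGANTCA match overlaps a TCANGTG match. The LAMA3 window lies inside the gene (chr18:23689443-23956222, plus strand), before a start within it. Counts per gene do not show which LAMA3 start was used. Over 35116 RefSeq promoters with 250 bases, 6.57% held TGANTCA, 11.9% GGAATG, 30.9% ACAANG and 10.7% TCANGTG. Of the 26 members with a promoter in the table, 1, 4, 2 and 4 held them. A match describes these letters only.

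The white blood cell chains ITGAX and ITGB2 rose in MED12 knockout cells. ITGAX lay at 11.3 to 13.4 CPM (median 12.3) in MED12 knockout libraries, against 2.01, 2.60 and 2.63 CPM in control libraries, a rise of 2.33 ± 0.11 (SE, adjusted p = 1.31e-24). It rose by 0.52 ± 0.11 in MED19 knockout cells, but not with guide 2 alone (0.17, adjusted p = 0.333), and did not pass in MED23 knockout cells (0.13, adjusted p = 0.374). ITGB2 rose by 1.74 ± 0.13 (SE, adjusted p = 2.17e-16) in MED12 knockout cells. Blood cell markers summed to 25.7 to 26.5 CPM in MED12sg1 and 4.08 to 4.48 CPM in control libraries, over 9 genes of which 3 were at 0 in both, HBB and TYROBP among them. LAPTM5 made up most of it, with 22.3 CPM in MED12sg1 and 3.55 CPM in control libraries, and PTPRC, the marker of white blood cells, was at 0.427 CPM in MED12sg1 and 0.0744 CPM in control libraries. The part of these markers in the rise of ITGAX and ITGB2 was not tested.

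Vemurafenib in control cells was followed by lower ITGA9, ITGB3, ITGB5 and ITGA10 and by higher LAMA2, ITGA4, LAMA5 and LAMB1. It called 16 of 37 members (8 higher, 8 lower), against 29.7% of all genes tested (18.5% higher, 11.2% lower), and 33 members moved by adjusted p alone, against 66.2%. The median over the members was 0.18, and over all genes tested 0.11. All 16 called members were without overlap between the 3 drug and 3 DMSO libraries. This was not counted over all genes, and it rests on the same libraries as the calls, so it is no separate support.

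ITGB3 and ITGB5, beta chains that pair with ITGAV, fell. ITGB3 was at 25.0, 23.7 and 24.6 CPM with vemurafenib, against 201, 195 and 204 CPM in DMSO, and fell, with a log2 fold change of -3.03 ± 0.052 (SE, adjusted p = 1.55e-42). ITGB5 was at 64.9, 59.2 and 65.2 CPM with vemurafenib, against 215, 225 and 224 CPM in DMSO, and fell, with a log2 fold change of -1.81 ± 0.033 (SE, adjusted p = 9.71e-42). ITGAV, the alpha chain of both, rose by 0.23 ± 0.033, and ITGB8, another partner of ITGAV, rose by 0.69 ± 0.043. The order of the 3 beta chains per length was reversed: with vemurafenib ITGB8 was at 14.1 ± 0.175, ITGB5 at 9.79 ± 0.522 and ITGB3 at 5.57 ± 0.153 RPKM, and in DMSO ITGB8 was at 8.76 ± 0.204, ITGB5 at 34.3 ± 0.789 and ITGB3 at 45.5 ± 0.994 RPKM.

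ITGA9 and ITGA4, which share ligands, moved apart. ITGA9 was at 3.01, 3.43 and 3.02 CPM with vemurafenib, against 42.9, 44.4 and 50.4 CPM in DMSO, and fell, with a log2 fold change of -3.87 ± 0.13 (SE, adjusted p = 7.08e-31). ITGA4 was at 246, 243 and 244 CPM with vemurafenib, against 79.6, 79.6 and 81.5 CPM in DMSO, and rose by 1.61 ± 0.037 (SE, adjusted p = 2.00e-37). SPP1 (osteopontin), a ligand of both and of ITGAV with ITGB3, rose by 2.44 ± 0.052, and TNC (tenascin-C) fell, with a log2 fold change of -0.66 ± 0.03.

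Of the 4 collagen receptor chains, ITGA1 and ITGA10 fell and ITGA2 rose with the drug. ITGA10, known from cartilage, was at 3.29, 3.73 and 3.28 CPM with vemurafenib, against 12.8, 13.7 and 14.7 CPM in DMSO, a log2 fold change of -2.00 ± 0.10 (SE, adjusted p = 2.26e-23). ITGA1 fell, with a log2 fold change of -1.34 ± 0.045; it shares 1046 exon bases with genes on its strand, PELO among them, so its counts are uncertain. ITGA2, the epithelial and platelet collagen receptor chain, rose by 0.60 ± 0.042, and ITGA11 was at -0.16 (adjusted p = 0.289). Of the laminin receptor chains, ITGA3 and ITGA6 fell, with log2 fold changes of -1.20 ± 0.03 and -0.58 ± 0.029, and ITGB4, the hemidesmosome chain that pairs with ITGA6, rose by 0.87 ± 0.066.

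**Figure D2:**
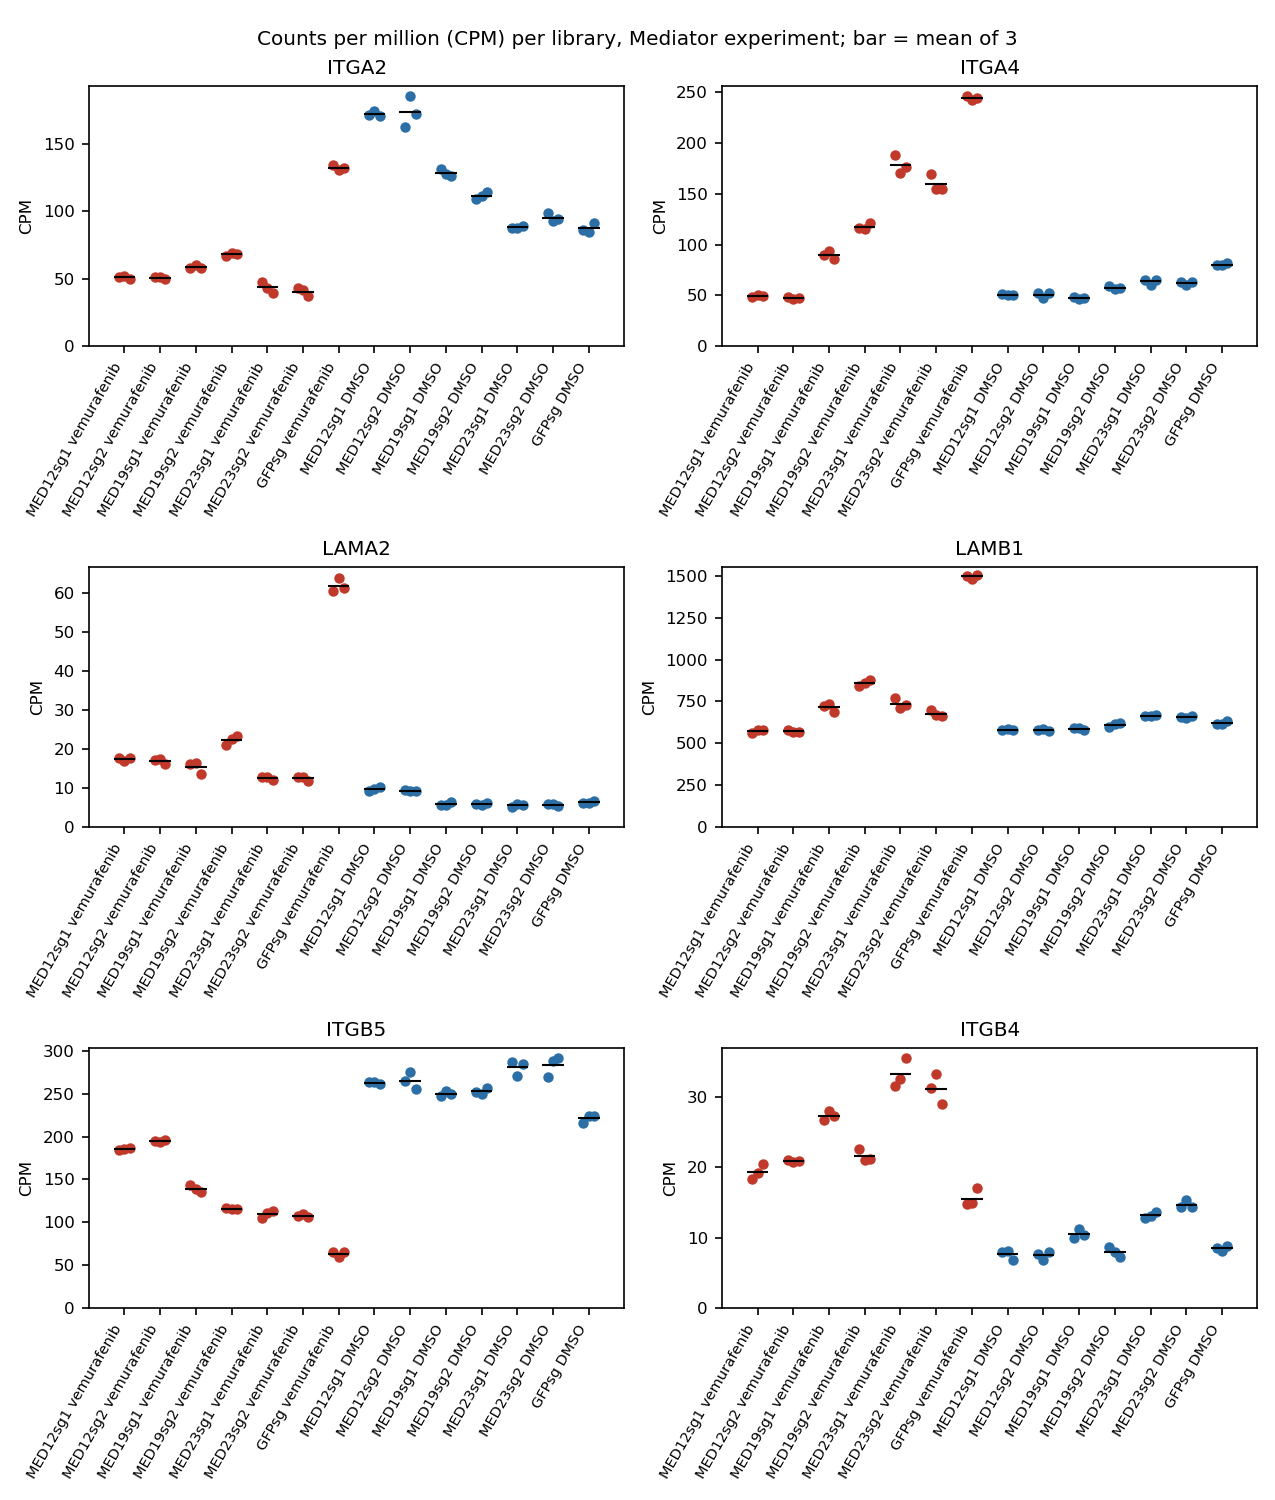
Level (CPM) in each library of the Mediator experiment for 6 members with a drug response; each point is 1 library, the bar is the mean of 3, red is vemurafenib and blue is DMSO. LAMA2 and LAMB1 are highest in GFPsg cells with vemurafenib, ITGA2 with vemurafenib lies above DMSO in GFPsg cells and below it in each knockout line, and ITGB5 is lowest in GFPsg cells with vemurafenib.

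LAMA2, LAMA5, LAMB1 and LAMB2 rose with the drug in control cells. LAMA2 was at 60.4, 63.7 and 61.2 CPM with vemurafenib, against 6.22, 6.24 and 6.78 CPM in DMSO, a rise of 3.26 ± 0.062 (SE, adjusted p = 9.96e-41). LAMB1 was at 1501, 1482 and 1505 CPM with vemurafenib, against 613, 614 and 633 CPM in DMSO, a rise of 1.27 ± 0.025 (SE, adjusted p = 2.83e-40). LAMA5 rose by 1.58 ± 0.05 (SE, adjusted p = 1.65e-31), and LAMB2 by 1.01 ± 0.028 (SE, adjusted p = 1.10e-33). LAMC1, the gamma chain of the same trimers, rose by 0.081 ± 0.024, and did not pass in a fit on the groups compared alone (0.033, adjusted p = 0.159). LAMB3 rose by 0.71 ± 0.039 and LAMA3 fell, with a log2 fold change of -0.40 ± 0.13 (SE, adjusted p = 0.00545), which did not pass without vemurafenib replicate 2 (adjusted p = 0.113), so these 2 chains of the epithelial laminin did not move together here. LAMB4 had 457 counts over the 3 vemurafenib libraries and 24 over the 3 DMSO libraries. ITGA2B, the platelet alpha chain, rose by 1.56 ± 0.53 (SE, adjusted p = 0.00844) on 98 counts with vemurafenib and 41 in DMSO, and did not pass without DMSO replicate 2 (adjusted p = 0.0579).

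In the knockout lines the drug called 6 of 37 members in MED12 knockout cells (3 higher, 3 lower), against 15.7% of all genes tested (10.3% higher, 5.42% lower), 13 in MED19 (7 higher, 6 lower), against 25.6% (16.5% higher, 9.11% lower), and 17 in MED23 knockout cells (7 higher, 10 lower), against 25.6% (16.1% higher, 9.53% lower). By adjusted p alone 29, 30 and 34 members moved, against 63.2%, 70.3% and 69.5%. Falling ITGB3 and rising LAMA5 and ITGB4 were seen in each knockout. ITGB3 fell, with log2 fold changes of -1.75 ± 0.038 in MED12, -3.29 ± 0.04 in MED19 and -4.31 ± 0.049 in MED23 knockout cells. It lay at 2.33 to 3.29 CPM (median 2.96) in the MED23 knockout libraries with vemurafenib, against 47.9 to 63.0 CPM (median 57.8) in DMSO. LAMA5 rose by 1.18 ± 0.034, 1.78 ± 0.035 and 1.69 ± 0.035, and ITGB4 by 1.42 ± 0.046, 1.41 ± 0.047 and 1.21 ± 0.045, in MED12, MED19 and MED23 knockout cells.

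Whether the drug response itself differed was tested as an interaction, the response in knockout cells minus that in control cells. It called 12 of 37 members for MED12, against 14.7% of all genes tested, 6 for MED19, against 5.13%, and 8 for MED23, against 6.35%. The drug response of 25, 26 and 25 members differed by adjusted p alone, against 49.0%, 32.6% and 34.8% of all genes. ITGA2 changed direction. With vemurafenib it lay at 49.5 to 52.2 CPM (median 51.4) in MED12 knockout libraries, against 163 to 186 CPM (median 172) in DMSO, whereas control libraries were at 134, 131 and 132 CPM with vemurafenib and 86.5, 84.4 and 91.3 CPM in DMSO. The drug response was -1.76 ± 0.03 in MED12, -0.92 ± 0.03 in MED19 and -1.13 ± 0.031 in MED23 knockout cells, against 0.60 ± 0.042 in control cells. The interaction was -2.36 ± 0.052 (SE, adjusted p = 2.77e-37), -1.52 ± 0.051 (SE, adjusted p = 7.94e-29) and -1.73 ± 0.052 (SE, adjusted p = 5.22e-31).

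The rise of LAMA2 and LAMB1 with the drug was smaller in each knockout than in control cells. LAMA2 with vemurafenib was at 16.2 to 17.7 CPM (median 17.3) in MED12, 13.6 to 23.3 CPM (median 18.7) in MED19 and 11.8 to 12.9 CPM (median 12.7) in MED23 knockout libraries, against 60.4, 63.7 and 61.2 CPM in control libraries. It still rose in each line, and the interaction was -2.41 ± 0.073, -1.61 ± 0.075 and -2.11 ± 0.076 (highest adjusted p 2.60e-23). LAMB1 was at 561 to 580.0 CPM (median 573) in MED12 knockout libraries with vemurafenib and 575 to 583 CPM (median 579.9) in DMSO, a difference of -0.019 ± 0.017 (adjusted p = 0.34). Its interaction was -1.29 ± 0.03 (SE, adjusted p = 3.71e-36) for MED12, -0.88 ± 0.03 (SE, adjusted p = 1.01e-28) for MED19 and -1.17 ± 0.03 (SE, adjusted p = 6.74e-34) for MED23. LAMB4 had 31 counts in MED23sg1 libraries with vemurafenib and 457 in control libraries with vemurafenib.

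ITGA4, ITGB5 and ITGA10 also responded differently in MED12 knockout cells. ITGA4 was at 46.1 to 49.9 CPM (median 47.9) with vemurafenib and 47.4 to 52.0 CPM (median 51.0) in DMSO in MED12 knockout libraries, an interaction of -1.68 ± 0.045 (SE, adjusted p = 9.13e-34). Its interaction was smaller in MED19 (-0.64 ± 0.045) and MED23 knockout cells (-0.18 ± 0.044, not passing with guide 1 alone, adjusted p = 0.0665). ITGB5 fell with the drug, with log2 fold changes of -0.47 ± 0.022 in MED12, -0.98 ± 0.022 in MED19 and -1.38 ± 0.023 in MED23 knockout cells, against -1.81 ± 0.033 in control cells, with an interaction of 1.34 ± 0.039 (SE, adjusted p = 2.55e-32) for MED12. The ITGA10 interaction was 1.15 ± 0.12 for MED12 and 1.03 ± 0.12 for MED19. That of ITGB3 was 1.28 ± 0.063 for MED12 and -1.27 ± 0.074 for MED23, which have opposite signs: the drug lowered ITGB3 less in MED12 and more in MED23 knockout cells than in control cells. The ITGA9 interaction was 3.06 ± 0.19 for MED12, where ITGA9 was at 0.363 to 0.860 CPM (median 0.612) with vemurafenib and 0.607 to 1.52 CPM (median 1.17) in DMSO.

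Set against control cells that also received vemurafenib, 24 of 37 members were called in MED12 knockout cells (12 higher, 12 lower), against 21.0% of all genes tested (10.9% and 10.2%). There were 14 in MED19 (6 higher, 8 lower), against 8.11% (4.00% higher, 4.12% lower), and 14 in MED23 knockout cells (6 higher, 8 lower), against 11.6% (5.71% higher, 5.92% lower). By adjusted p alone 33, 30 and 30 moved, against 62.2%, 43.7% and 47.3%. ITGB2 was at 8.37 to 11.7 CPM (median 9.68) in MED12 knockout libraries with the drug, against 0.664, 0.559 and 0.983 CPM in control libraries, a rise of 3.72 ± 0.15 (SE, adjusted p = 3.65e-27). Blood cell markers summed to 6.44 to 7.47 CPM in MED12sg1 and 4.69 to 5.64 CPM in control libraries with the drug, with PTPRC at 0.831 CPM in MED12sg1 and 2.32 CPM in control libraries, and their part was not tested. ITGB8 was at 47.1 to 59.3 CPM (median 52.4) in MED12 knockout libraries, against 216, 211 and 215 CPM in control libraries, a log2 fold change of -2.03 ± 0.036 (SE, adjusted p = 1.08e-41).

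ITGA6, the most abundant laminin receptor chain in control cells, fell in MED23 knockout cells with the drug to 98.1 to 113 CPM (median 106), against 366, 357 and 363 CPM in control libraries, with a log2 fold change of -1.78 ± 0.025 (SE, adjusted p = 1.83e-45). ITGA3, the other main laminin receptor chain, was higher in the same comparison, by 1.04 ± 0.027, and in MED19 knockout cells by 1.05 ± 0.027. Per length ITGA3 then lay above ITGA6: it was at 33.0 ± 0.972 and ITGA6 at 16.8 ± 0.453 RPKM in MED23sg1 libraries with vemurafenib. LAMB3 rose by 2.25 ± 0.035, 1.42 ± 0.034 and 1.33 ± 0.034, and LAMA3 by 2.12 ± 0.11, 1.31 ± 0.11 and 1.56 ± 0.11 in MED12, MED19 and MED23 knockout cells. These chains of the epithelial laminin were thus higher than in control cells with the drug as well as in DMSO.

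**Figure D3:**
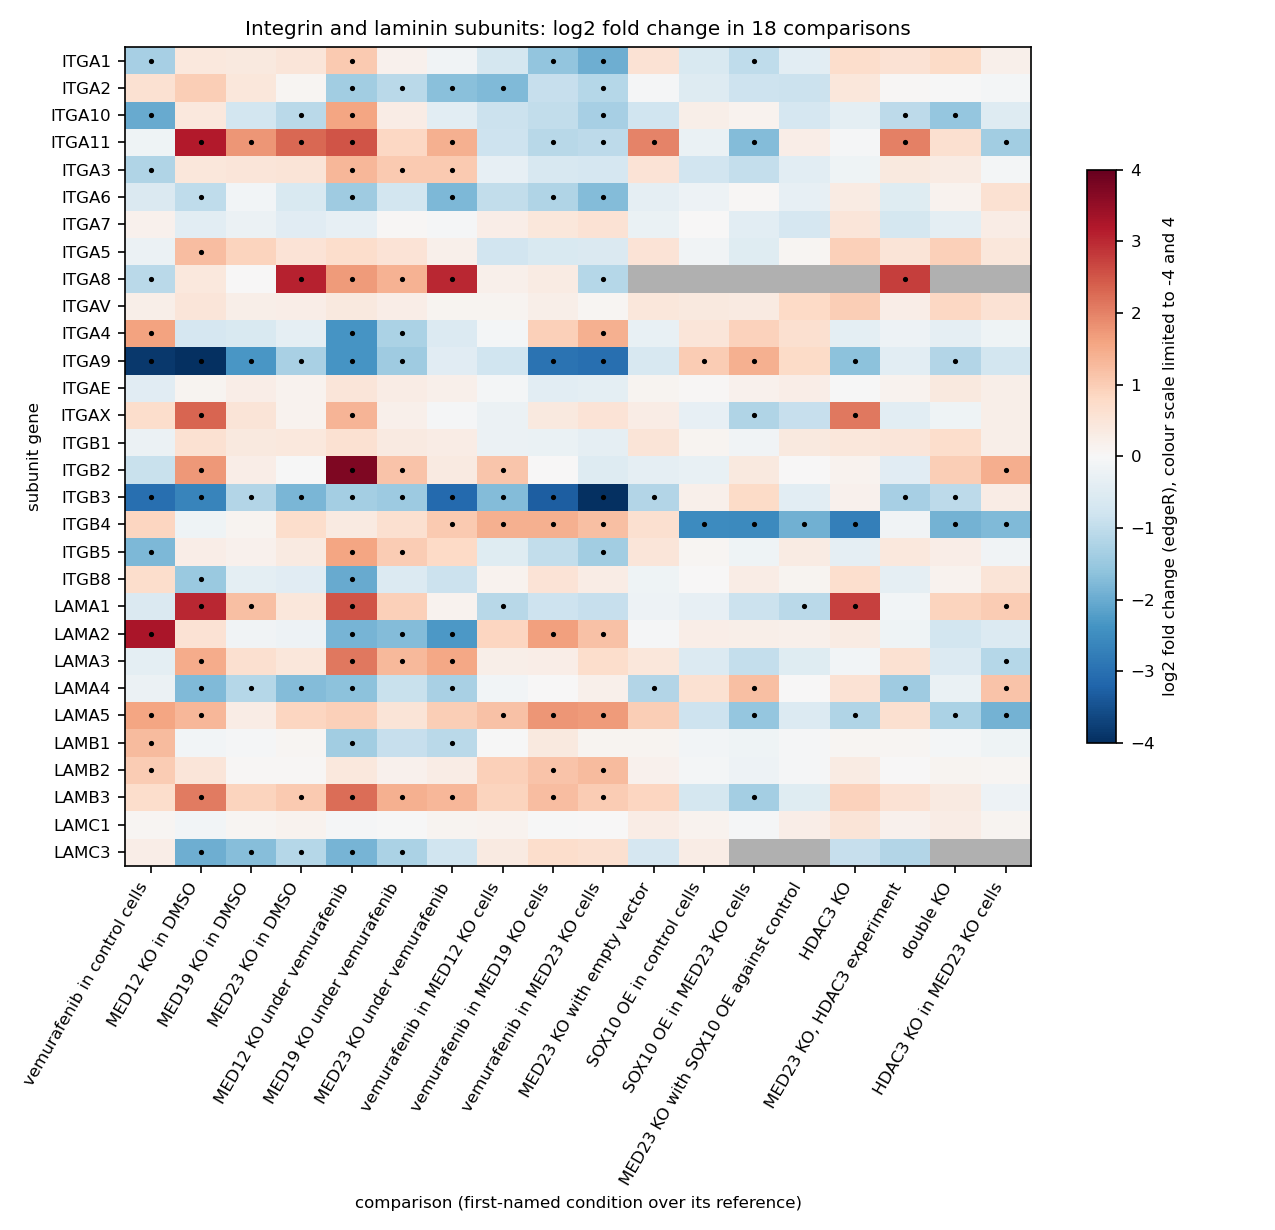
Fold change (log2, edgeR) of 30 of the 31 members tested in all 3 experiments, in the 18 comparisons that are not interactions; red is higher and blue lower in the first-named condition, a dot marks an adjusted p under 0.05 with at least a 2-fold change, and grey marks a group with under 30 counts (colours end at a log2 fold change of 4 in each direction). ITGB3 is blue in every comparison of a Mediator knockout with control cells and with vemurafenib in every line, and ITGB4 is blue wherever SOX10 was overexpressed or HDAC3 was lost.

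The SOX10 experiment shows which members of MED23 knockout cells respond to added SOX10. SOX10 itself was -1.09 on the log2 scale in MED23 knockout cells with EV and -0.29 in those with SOX10 overexpression, both against control cells with EV. With EV, MED23 knockout called 4 of 31 members (2 higher, 2 lower), against 5.51% of all genes tested (2.98% higher, 2.53% lower), and 24 moved by adjusted p alone, against 43.4%. SOX10 overexpression called 9 in MED23 knockout cells (2 higher, 7 lower), against 5.42% of all genes (2.14% and 3.28%), and 3 in control cells (1 higher, 2 lower), against 2.38% (0.794% higher, 1.59% lower). By adjusted p alone 25 and 20 moved, against 41.9% and 22.6%. These comparisons share groups: the MED23 knockout cells with EV stand in the first 2 on opposite sides, so opposite signs there are not independent.

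ITGA9 was at 56.1, 55.0 and 57.4 CPM in MED23 knockout cells with SOX10, 19.3, 19.6 and 23.6 CPM in MED23 knockout cells with EV, 66.1, 69.1 and 63.9 CPM in control cells with SOX10 and 33.4, 32.2 and 32.9 CPM in control cells with EV. The 4 groups did not overlap, and both SOX10 groups lay above both EV groups. SOX10 overexpression raised ITGA9 by 1.43 ± 0.054 (SE, adjusted p = 4.64e-19) in MED23 knockout and 1.01 ± 0.05 (SE, adjusted p = 5.64e-16) in control cells. LAMA4 was at 165, 162 and 161 CPM in MED23 knockout cells with SOX10 and 67.4, 68.0 and 76.9 CPM in those with EV, against 157, 167 and 154 CPM in control cells with EV. It rose by 1.20 ± 0.043 (SE, adjusted p = 1.01e-19) with SOX10 in MED23 knockout cells, and the knockout cells with SOX10 differed from control cells with EV by 0.03 ± 0.04 (adjusted p = 0.615). Control cells with SOX10 were at 252, 245 and 232 CPM of LAMA4, above every MED23 knockout library with SOX10. ITGB3 rose by 0.77 ± 0.045 with SOX10 in MED23 knockout cells, to 96.6, 96.9 and 97.2 CPM, against 131, 133 and 124 CPM in control cells with EV, from which it differed by -0.42 ± 0.042 (SE, adjusted p = 3.56e-09). In control cells with SOX10 ITGB3 was at 149, 154 and 139 CPM.

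ITGA11, LAMB3 and LAMA5, which with EV were higher in MED23 knockout than in control cells, fell with SOX10 in MED23 knockout cells, while ITGAV, also higher there with EV, rose by 0.35 ± 0.041. ITGA11 was at 2.48, 1.89 and 2.29 CPM in MED23 knockout cells with SOX10 and 7.65, 6.65 and 7.81 CPM in those with EV, against 1.94, 1.70 and 1.91 CPM in control cells with EV. The log2 fold change was -1.73 ± 0.12 (SE, adjusted p = 7.62e-13), in control cells the effect was -0.26 (adjusted p = 0.336), and the interaction was -1.47 ± 0.22 (SE, adjusted p = 1.04e-05), the single member of 31 called for a difference in the SOX10 response, against 1.55% of all genes tested; by adjusted p alone 19 members differed, against 14.7%. ITGA8 had 24 counts over the 3 MED23 knockout libraries with SOX10 and 183 over those with EV, against 14 in control cells with EV. LAMB3 and LAMA5 also fell in MED23 knockout cells, with log2 fold changes of -1.35 ± 0.065 (SE, adjusted p = 1.47e-16) and -1.54 ± 0.049 (SE, adjusted p = 9.20e-21).

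ITGB4, the hemidesmosome beta chain, had the largest response to SOX10 in MED23 knockout and in control cells among members with 30 counts in each group. It was at 3.65, 3.55 and 3.11 CPM with SOX10 and 18.8, 19.5 and 22.2 CPM with EV in MED23 knockout cells, and at 2.40, 2.20 and 2.21 CPM with SOX10 and 13.9, 13.2 and 12.1 CPM with EV in control cells. The log2 fold change was -2.55 ± 0.089 (SE, adjusted p = 6.92e-20) in MED23 knockout and -2.52 ± 0.11 (SE, adjusted p = 1.48e-17) in control cells, and the difference between the 2 was -0.034 ± 0.16 (adjusted p = 0.925). ITGA6, its partner, did not pass in MED23 knockout cells (0.051, adjusted p = 0.215) and was at -0.19 ± 0.032 in control cells. MED23 knockout cells with SOX10 still differed from control cells with EV in 3 called members, against 2.78% of all genes tested (1.18% higher, 1.60% lower): ITGB4 at -1.92 ± 0.10, LAMA1 at -1.08 ± 0.22, and LAMC3, whose libraries overlapped, with 29 counts in the MED23 knockout cells with SOX10 and 55 in control cells with EV, a call that DESeq2 did not make (adjusted p = 0.0561). By adjusted p alone 21 members differed in that comparison, against 33.4%.

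**Figure D4:**
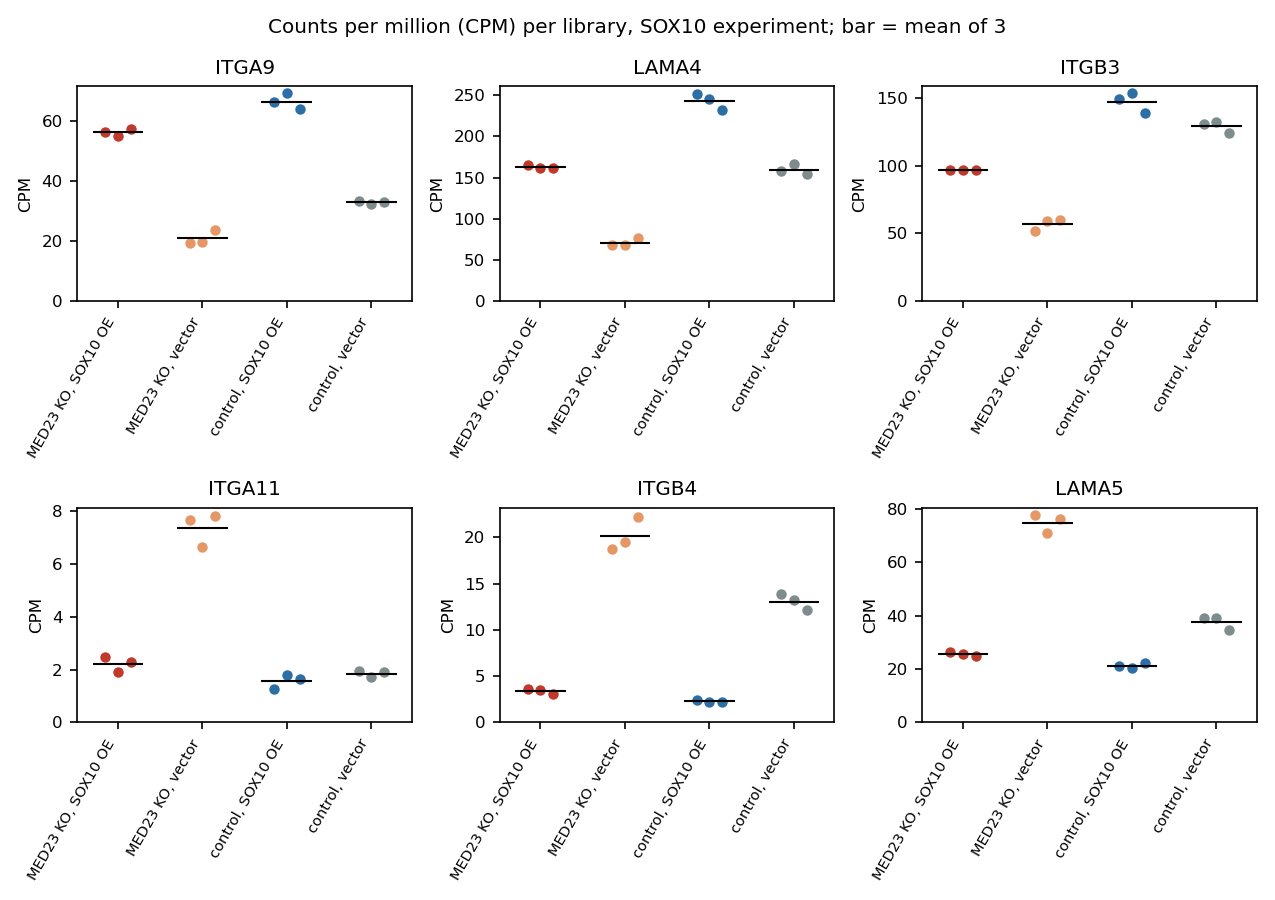
Level (CPM) in each library of the SOX10 experiment for 6 members; each point is 1 library and the bar is the mean of 3 (KO, knockout; OE, overexpression; vector, empty vector). In MED23 knockout cells ITGA9, LAMA4 and ITGB3 are higher and ITGA11, ITGB4 and LAMA5 lower with SOX10 than with the vector. LAMA4 in MED23 knockout cells with SOX10 overlaps the control cells with vector and lies below the control cells with SOX10.

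In the HDAC3 experiment, HDAC3 knockout called 7 of 34 members (3 higher, 4 lower), against 8.19% of all genes tested (4.63% higher, 3.57% lower), MED23 knockout 6 (2 higher, 4 lower), against 4.76% (2.28% higher, 2.49% lower), and the double knockout 8, all lower, against 5.00% (2.18% higher, 2.82% lower). Of these calls 1, 1 and 3 had a group under 30 counts, the last being ITGA8, ITGB7 and LAMC3. By adjusted p alone 26, 22 and 28 moved, against 42.1%, 24.3% and 36.6%. These 3 comparisons share the control libraries. HDAC3 loss in MED23 knockout cells called 8 members (3 higher, 5 lower), against 6.03% (2.96% higher, 3.07% lower), and 26 by adjusted p alone, against 38.0%. The MED23 knockout libraries stand in this comparison and in MED23 knockout against control on opposite sides, so opposite signs there are not independent.

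The 3 members called higher in HDAC3 knockout cells, LAMA1, ITGAX and LAMB4, were all under 6 CPM in every library. LAMA1 was at 1.69, 1.14 and 1.18 CPM in dKO, 4.94, 4.43 and 4.90 CPM in HDAC3 knockout and 0.669, 0.644 and 0.645 CPM in MED23 knockout libraries, against 0.606, 0.728 and 0.806 CPM in control libraries. The rise was 2.74 ± 0.17 (SE, adjusted p = 7.63e-12) in HDAC3 knockout and 0.90 ± 0.18 (SE, adjusted p = 0.000421) in dKO cells. ITGAX was at 1.48, 0.818 and 0.943 CPM in dKO and 4.84, 5.18 and 5.69 CPM in HDAC3 knockout libraries, against 1.14, 1.30 and 1.21 CPM in control libraries, a rise of 2.10 ± 0.16 (SE, adjusted p = 4.65e-10) in HDAC3 knockout cells. Blood cell markers summed to 6.11 to 7.71 CPM in dKO and 5.74 to 6.08 CPM in HDAC3 knockout libraries, against 3.24 to 3.96 CPM in control libraries, with HBB and TYROBP at 0 in all 3, and their part was not tested. LAMB4, a scarce laminin beta chain, rose by 1.61 ± 0.50 (SE, adjusted p = 0.012) in HDAC3 knockout cells, on 104 counts over the 3 HDAC3 knockout and 56 over the 3 control libraries, and did not pass without control replicate 2 (adjusted p = 0.0606). The effect of HDAC3 loss on LAMA1 and ITGAX was smaller when MED23 was also lost: the interaction was -1.72 ± 0.25 (SE, adjusted p = 2.45e-05) for LAMA1 and -1.87 ± 0.25 (SE, adjusted p = 8.68e-06) for ITGAX. The interaction called 7 of 34 members, against 3.55% of all genes tested, and 23 by adjusted p alone, against 20.5%.

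ITGB4, ITGA9 and LAMA5 fell with HDAC3 loss. ITGB4 was at 2.44, 1.76 and 1.98 CPM in dKO, 1.06, 1.10 and 1.27 CPM in HDAC3 knockout and 7.02, 7.38 and 6.46 CPM in MED23 knockout libraries, against 7.65, 7.47 and 7.64 CPM in control libraries. Its fold change was -2.73 ± 0.12 (SE, adjusted p = 5.76e-14) in HDAC3 knockout cells and -1.76 ± 0.12 (SE, adjusted p = 4.95e-11) for HDAC3 loss in MED23 knockout cells. ITGA9 was at 8.19, 7.61 and 6.83 CPM in HDAC3 knockout libraries, against 25.1, 23.8 and 22.2 CPM in control libraries, a log2 fold change of -1.65 ± 0.079 (SE, adjusted p = 1.22e-13). LAMA5 was at 9.61, 8.30 and 6.79 CPM in dKO and 9.07, 8.71 and 7.61 CPM in HDAC3 knockout libraries, against 22.1, 18.1 and 18.7 CPM in control libraries, while MED23 knockout libraries were at 28.9, 33.0 and 29.2 CPM. It fell, with log2 fold changes of -1.22 ± 0.10 (SE, adjusted p = 1.97e-09) in HDAC3 knockout cells and -1.89 ± 0.10 (SE, adjusted p = 2.25e-12) for HDAC3 loss in MED23 knockout cells. ITGAV, the partner of ITGB3, rose by 0.98 ± 0.051 in HDAC3 knockout and 0.83 ± 0.051 in dKO cells.

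Loss of HDAC3 in MED23 knockout cells moved LAMA4 and ITGA11 in the direction of the control level. ITGA10 and ITGA9, also lower in MED23 knockout cells, moved further from it. ITGA10 averaged 3.48 CPM in dKO, 4.91 CPM in MED23 knockout and 10.1 CPM in control libraries. ITGA9 averaged 10.5, 17.5 and 23.7 CPM in the same order. LAMA4 was at 148, 158 and 164 CPM in dKO and 71.8, 73.1 and 68.6 CPM in MED23 knockout libraries, against 199.7, 185 and 181 CPM in control libraries. HDAC3 knockout libraries were at 296, 271 and 283 CPM, above every control and every dKO library. LAMA4 rose by 1.14 ± 0.051 (SE, adjusted p = 6.80e-14) when HDAC3 was lost in MED23 knockout cells, and dKO cells differed from control cells by -0.27 ± 0.05 (adjusted p = 0.000159). ITGA11 was at 1.00, 1.56 and 1.69 CPM in dKO and 3.55, 3.98 and 3.63 CPM in MED23 knockout libraries, against 1.05, 0.749 and 0.952 CPM in control libraries, a log2 fold change of -1.38 ± 0.18 (SE, adjusted p = 1.91e-06). ITGA8 had 2 counts over the 3 dKO libraries, 8 over the HDAC3 knockout, 265 over the MED23 knockout and 44 over the control libraries. ITGB3 moved in the direction of the control level by less, and was at 51.1, 53.1 and 51.0 CPM in dKO and 43.4, 43.2 and 40.9 CPM in MED23 knockout libraries, against 113, 108 and 99.8 CPM in control libraries, and HDAC3 loss changed it by 0.28 ± 0.052 (SE, adjusted p = 0.000168). HDAC3 knockout libraries, at 124, 115 and 120 CPM of ITGB3, also lay above the control libraries, and its interaction did not pass. ITGB2 rose by 1.45 ± 0.18 (SE, adjusted p = 7.89e-07) for HDAC3 loss in MED23 knockout cells. ITGB7 had 9 counts in dKO, 28 in MED23 knockout and 99 in control libraries, with 1886 exon bases shared with ZNF740 on the opposite strand, and its call in MED23 knockout cells was lost without control replicate 1 (adjusted p = 0.134).

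**Figure D5:**
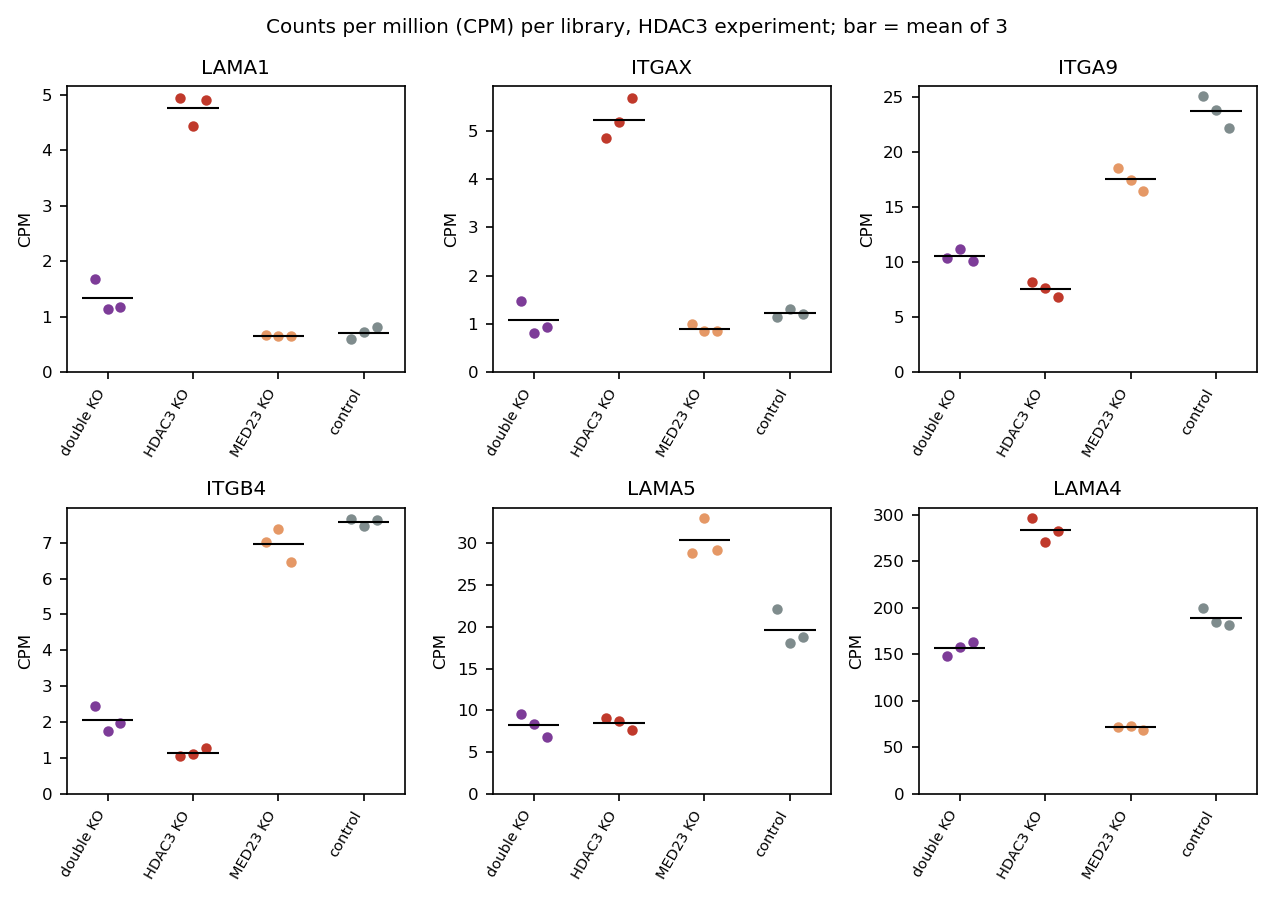
Level (CPM) in each library of the HDAC3 experiment for 6 members; each point is 1 library and the bar is the mean of 3 (KO, knockout). LAMA1 and ITGAX are highest in HDAC3 knockout libraries, ITGA9, ITGB4 and LAMA5 are lower in dKO and HDAC3 knockout than in control libraries, and LAMA4 is lowest in MED23 knockout libraries.

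MED23 knockout was compared with control cells in all 3 experiments, each with its own libraries. The Mediator value averages sg1 and sg2 and the SOX10 value is from sg1, so these 2 experiments share a guide. The sample titles of the HDAC3 experiment name no guide. ITGB3 fell, with log2 fold changes of -1.84 ± 0.04 in the Mediator, -1.18 ± 0.045 in the SOX10 and -1.33 ± 0.052 in the HDAC3 experiment. LAMA4 fell in the same order with -1.73 ± 0.042, -1.17 ± 0.043 and -1.41 ± 0.051, and ITGA11 rose by 2.29 ± 0.10, 1.99 ± 0.13 and 2.02 ± 0.18. These 3 members were called in each experiment. ITGA9 fell, at -1.29 ± 0.089, -0.65 ± 0.058 and -0.44 ± 0.073, past 2-fold in the Mediator experiment only; whether the fall differs between experiments was not tested. ITGA8 rose by 3.08 ± 0.27 in the Mediator and 2.77 ± 0.40 in the HDAC3 experiment, and in the SOX10 experiment had 183 counts in MED23 knockout and 14 in control libraries. ITGA10, at -1.09 ± 0.078, -0.81 ± 0.074 and -1.04 ± 0.10, fell in each.

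Other genes of the pathway were described in 3 lists, and those named from them were picked after their values were seen. Of 25 adaptors and kinases that connect integrins to actin, 15 rose and 6 fell in MED12 knockout cells in DMSO, with a median of 0.33 and one of 0.0031 over all genes tested, of which 54.9% moved. TNS1 (tensin) rose by 3.44 ± 0.092 and VCL (vinculin) by 1.12 ± 0.028, and NEDD9, a docking protein, fell, with a log2 fold change of -1.18 ± 0.045. TNS1 also rose in MED23 knockout cells, by 1.89 ± 0.091 in the Mediator, 1.56 ± 0.16 in the SOX10 and 1.34 ± 0.16 in the HDAC3 experiment. With vemurafenib in control cells 11 adaptors rose and 10 fell, against 66.2% of all genes that moved, among them ACTN1 (alpha-actinin) at -2.15 ± 0.031, PXN (paxillin) at -1.34 ± 0.03 and FERMT1 (a kindlin) at -1.73 ± 0.048. HDAC3 knockout raised 1 and lowered 11 of the 25, against 42.1% of all genes that moved in either direction.

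Of 20 other integrin ligands and basement membrane genes, 19 were tested in the Mediator experiment. With vemurafenib in control cells 12 rose and 4 fell, with a median of 0.76 over the list and 0.11 over all genes tested, of which 66.2% moved. The type IV collagen gene COL4A5 rose by 2.20 ± 0.054, COL4A1 fell, with a log2 fold change of -1.22 ± 0.031, NID1 (nidogen, which binds laminin gamma chains) rose by 1.21 ± 0.033, and VTN (vitronectin) rose by 2.09 ± 0.18. The SPP1 response to the drug was -1.15 ± 0.035 in MED12 knockout cells, an interaction of -3.60 ± 0.062 (SE, adjusted p = 2.21e-41). In MED23 knockout cells in DMSO 8 rose and 6 fell, against 36.9% of all genes that moved, with COL4A6 at 1.96 ± 0.12 and THBS2 (a thrombospondin) at -1.33 ± 0.086. FN1 (fibronectin), the ligand of ITGA5 with ITGB1, fell with SOX10, at -1.87 ± 0.037 in MED23 knockout and -1.21 ± 0.036 in control cells. Of 11 other laminin receptors and integrin partners, 4 rose and 4 fell with vemurafenib in control cells, near the 66.2% of all genes that moved, with BCAM, a receptor for LAMA5, at 1.03 ± 0.053 and SDC1 (syndecan) at -2.25 ± 0.042. In HDAC3 knockout cells BCAM fell, with a log2 fold change of -1.03 ± 0.11.

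Of the members not yet described, several moved little. ITGB1, the common beta chain, had log2 fold changes between -0.37 and 0.70 over the 18 comparisons that are not interactions. ITGA7, a laminin receptor chain of muscle, lay between -0.70 and 0.58 over the same comparisons, and LAMC1 between -0.12 and 0.51. ITGAE, a partner of ITGB7, lay between -0.46 and 0.49. None of these 4 reached a 2-fold change in any of them. ITGA5 rose in each Mediator knockout in DMSO, by 1.24 ± 0.028, 0.90 ± 0.027 and 0.54 ± 0.027, and in HDAC3 knockout cells by 0.96 ± 0.048; it is named here after its values were seen. ITGAL had at most 21 counts over the 3 libraries of any group, and ITGAM at most 52. ITGAD had at most 190 counts and was called in no comparison. ITGB6 had at most 74 counts over the 3 libraries of any group. With vemurafenib it was called in MED19 knockout cells, on 23 counts for sg1 and 14 for sg2, and in MED23 knockout cells, on 8 and 4, against 47 in control libraries, and so were the interactions of both. All 4 calls were lost with guide 1 alone (adjusted p = 0.0912 to 0.363), and the MED19 call also without control replicate 3 with vemurafenib (adjusted p = 0.170) and with the replicate block (adjusted p = 0.0661).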

How the data were processed

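RNA from A375 cells was made into 66 stranded polyA libraries (KAPA Stranded mRNA-Seq), per the labels' protocols. The deposited values are counts of reads per Ensembl gene in 3 tables. bcl2fastq, HISAT2 with hg38 and HTSeq are listed in the submitters' processing notes; for versions, annotation and strand setting the sources used here give nothing. Columns were matched to samples by name; the HDAC3 table's control columns carry the name GFP and were taken as the Ctrl samples because the other 9 columns bear the titles of the other 3 groups. IDs were named with GENCODE 29, which holds 58676 of the 58721. Of the 38 members, 18 overlap an exon of another gene on the opposite strand and 6 on the same strand.

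Each table was fitted alone with edgeR 4.0.16 in R 4.3.3: filterByExpr (minimum count 10, minimum total 15), TMM scaling, 1 mean per group, the quasi-likelihood test, both guides of a gene weighted equally, and Benjamini-Hochberg adjustment over all genes tested in each of 23 comparisons. The standard error is the fold change over the root of the F statistic. CPM uses TMM-scaled library sizes, and RPKM divides by the exon-union length in GENCODE 29. The fit was tested on simulated data of 1 group and its control per experiment. Averaged guides and interactions were not simulated, and no result here rests on that run. For each comparison up to 5 members with the highest and 5 with the lowest fold change are named, among those called with at least 30 counts in 1 group and, for the Mediator experiment, past the threshold with each guide alone; their partner chains may stand beside them. The counts of members include 1 that is not reported here by name. The members and the lists were chosen with earlier results of these data known. Promoters are from RefSeq (GRCh38.p14), which held 26 of the 38 members. Every pair of replicates differed by more than sampling noise (chi-square per gene of at least 1.42, against about 1 from counting alone). Samples with the same replicate number deviated together, with every pair's correlation over 0.1, only for HDAC3 loss in MED23 knockout cells (0.152 to 0.332 over 3 pairs). For HDAC3 knockout the pairs ranged from 0.0924 to 0.568, and for MED23 knockout in that experiment from -0.0807 to 0.490. The highest pair for vemurafenib in MED12 knockout cells was 0.483.

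Alternatives were DESeq2's (1.42.0) size factors and Wald test, no low-count filter, the replicate block, fits on the groups compared, each guide alone, no fold minimum, and each library left out.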

Additional observations from a re-analysis of the deposited data

Results flagged for a closer look

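The results below were picked out because the effect of a treatment or knockout on a member differed between knockout and control cells by the interaction test of edgeR. They are limited to members that met the rule for naming, with each group at 30 counts or more. Other called members are left out, such as ITGA6 for vemurafenib in MED23 knockout cells and LAMA3 for HDAC3 loss in MED23 knockout cells. For vemurafenib in MED12 knockout cells minus control cells, the log2 difference was -2.41 for LAMA2, -2.36 for ITGA2, -1.68 for ITGA4 and -1.29 for LAMB1. It was 3.06 for ITGA9, 1.98 for ITGB2, 1.34 for ITGB5, 1.28 for ITGB3 and 1.15 for ITGA10. In MED19 knockout cells it was -1.61 for LAMA2, -1.52 for ITGA2 and 1.03 for ITGA10. In MED23 knockout cells it was -2.11 for LAMA2, -1.73 for ITGA2, -1.27 for ITGB3, -1.17 for LAMB1 and 1.11 for LAMA3. These 3 interactions share the control libraries. For SOX10 overexpression in MED23 knockout minus control cells it was -1.47 for ITGA11. For HDAC3 loss in MED23 knockout minus control cells it was -1.87 for ITGAX, -1.72 for LAMA1, -1.32 for ITGA11, -1.12 for LAMB3 and 1.32 for ITGB2.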

How the results depend on the processing

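Of 161 fold changes of members that met the rule for naming, none reversed. Under every alternative run other than a guide alone, 155 kept an adjusted p under 0.05 (2356 of 2374 values). The 2-fold limit was not applied again to these values. The rule took the largest called fold changes from the same libraries, so their stability is no separate support. Each guide alone was part of the rule for naming, so it says nothing of these fold changes. Over all members, 50 of 381 results with an adjusted p under 0.05 in comparisons with both guides were lost with 1 guide alone. The other 6 rest on few counts. ITGA2B with vemurafenib in control cells was lost without control replicate 2 in DMSO (1.28, adjusted p = 0.0579). LAMC3 in MED23 knockout cells with SOX10 was lost by DESeq2 and without any of 4 libraries, at -0.68 to -0.97. ITGA8 in HDAC3 knockout cells was lost without control replicate 3, without HDAC3 knockout replicates 1 or 2, and in a fit on the groups compared, at -1.33 to -1.71, and its interaction without HDAC3 knockout replicate 3 (adjusted p = 0.148). LAMB4 in HDAC3 knockout cells was lost without control replicate 2 or HDAC3 knockout replicates 1 or 3, at 1.37 to 1.40, and ITGB7 in MED23 knockout cells of that experiment without 4 libraries (control replicates 1 and 2, knockout replicates 2 and 3), at -1.26 to -1.68. With no fold minimum 33 members were called with vemurafenib in control cells, 31, 27 and 28 in MED12, MED19 and MED23 knockout cells in DMSO, 30 and 30 in MED19 and MED23 knockout cells under vemurafenib, 29, 30 and 34 with vemurafenib in the 3 knockouts and 25, 26 and 25 for the interactions. In the SOX10 experiment they were 24, 20, 25, 21 and 19, and in the HDAC3 experiment 26, 22, 28, 26 and 23. MED19 guide 2 alone called 3 members in DMSO and 9 under vemurafenib, against 7 and 14 with both guides. Leaving out single libraries gave 1 to 2 members for the SOX10 interaction (2 without control replicate 2 with SOX10 or MED23 knockout replicate 3 with EV), and moved no other count of members over 1.5 times. The replicate block left 20 of 23 counts as they were and gave 13 for MED19 knockout under vemurafenib, 16 for vemurafenib in MED23 knockout cells and 5 for the MED19 interaction, so it moved no count over 1.5 times, the paired HDAC3 comparison included (8). The SOX10 experiment had the fewest counts (24.87 to 30.77 M a library), and 7 members could not be tested there.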
